A study of Mus musculus with 2 samples.

Results

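The genes described here are 9 transcription factors of the luminal mammary lineage, namely *Elf5*, *Gata3*, *Foxa1*, *Ehf*, *Elf3*, *Tbx3*, *Cebpb*, *Cebpd* and *Grhl2*. They were picked by symbol, and 8 of the 9 matched a row among the 27998 genes of the count table, whereas *Cebpd* was not analysed here. Adult mammary epithelial cells of female FVB/NJ mice, an inbred laboratory strain, were profiled at 10 weeks of age with the 10X Chromium platform, which tags each RNA molecule near its 3' end with a cell barcode and a random identifier so that molecules and not reads are counted. One library held total epithelium (Lin- CD24+, cells free of blood and endothelial surface proteins and positive for an epithelial one), and the other held sorted basal cells (Lin- CD29hi CD24+, high for the integrin CD29). Each library was made from the cells of 4 pooled, untreated mice whose estrus stage was not given, so each group is 1 sample and no difference has a replicate check.

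The mammary epithelium is built from an outer basal, contractile layer and an inner luminal layer. The luminal layer holds luminal progenitors (LP), which give rise to the milk-producing alveolar cells, and mature luminal (ML) cells, many of which carry hormone receptors. *Elf5*, *Ehf* and *Elf3* encode relatives of the ETS family that are found in epithelia, and *Elf5* is the best known regulator of alveolar fate. *Gata3*, *Foxa1* and *Tbx3* encode a zinc finger, a forkhead and a T-box factor that are linked to the hormone-sensing luminal lineage. *Cebpb* and *Cebpd* encode leucine zipper factors, of which the former is needed for alveolar growth. *Grhl2* encodes a grainyhead factor that keeps up epithelial junction genes.

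The 3302 cells of the total epithelium library were split by marker counts. A cell was called basal with 10 or more counts of *Krt5*, *Krt14* and *Acta2* together, ML (if not basal) with 10 or more counts of *Prlr*, *Stc2* and *Gpx3*, and LP if neither applied and *Krt8*, *Krt18* and *Krt19* reached 3 counts. This gave 1306 basal, 766 LP and 1133 ML cells, with 97 cells left over. None of the 9 factors enters the rule. The median count per cell was 1838.5 for basal, 2483.5 for LP and 3403 for ML cells, and the class totals were 2776233, 2158548 and 4132895 counts. The classes were checked against lineage markers that the rule does not use, since the contrast in its own genes is fixed by the rule. The 5 such basal markers summed to 10381 counts per 1000000 (CPM) in basal cells against 76.9 in LP and 39.9 in ML cells, the 11 LP markers to 98593 CPM in LP against 8992 in ML and 4524 in basal cells, and the 7 such ML markers to 23816 CPM in ML against 2544 in LP and 1559 in basal cells. No doublet caller was run. There were 26 cells that met both the basal and the ML rule and were kept as basal, and 174 basal cells held 10 or more luminal keratin counts. Near the thresholds, 69 LP cells held 6 to 9 ML marker counts and 90 ML cells held 10 to 13. The sorted basal library was much shallower, with 2488704 counts over 4771 cells (median 487). The libraries shared 28 cell barcodes.

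The 8 genes lie on 5 chromosomes of the mouse genome (GRCm38). *Elf5* (ENSMUSG00000027186) spans chr2:103411688-103450989 on the plus strand and *Ehf* (ENSMUSG00000012350) spans chr2:103263433-103303278 on the minus strand, so these ETS genes are neighbours 108409 bases apart, with 3 annotated genes between them of which 0 code for protein. *Gata3* (chr2:9857078-9890034) and *Cebpb* (chr2:167688915-167690418) lie elsewhere on the same chromosome. *Elf3* (chr1:135253575-135258568), *Tbx3* (chr5:119670669-119684724), *Foxa1* (chr12:57540628-57546916) and *Grhl2* (chr15:37233036-37363569) are on others. Genes on the other strand are annotated over *Gata3*, *Elf3*, *Tbx3*, *Cebpb* and *Grhl2*, and *Gata3* alone also overlaps a gene on its own strand (*9230102O04Rik*). *Elf5*, *Ehf* and *Foxa1* overlap no annotated gene. Any effect of these overlaps on the counts was not tested.

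Sequences just before the transcription start are shown for *Elf5* and *Elf3*, which were highest in LP cells, and for *Foxa1*, which was highest in ML cells, so that the opposite patterns can be read beside the promoters. They come from RefSeq (GRCm38.p6) and are written 5' to 3' on the gene's strand. *Elf5* is the inner start, chr2:103423818-103424061 (plus strand), *Elf3* is chr1:135258569-135258722 (minus) and *Foxa1* is chr12:57546122-57546361 (minus). Capitals mark the ETS core GGAA (or its reverse complement TTCC) and, in *Foxa1*, the forkhead word TGTTTAC (reverse complement GTAAACA). These motifs do not overlap each other.
Elf5: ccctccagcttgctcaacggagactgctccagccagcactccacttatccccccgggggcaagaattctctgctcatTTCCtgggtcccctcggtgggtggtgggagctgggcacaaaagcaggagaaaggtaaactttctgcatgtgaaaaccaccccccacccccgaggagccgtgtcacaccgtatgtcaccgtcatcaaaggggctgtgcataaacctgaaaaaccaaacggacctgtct
Elf3: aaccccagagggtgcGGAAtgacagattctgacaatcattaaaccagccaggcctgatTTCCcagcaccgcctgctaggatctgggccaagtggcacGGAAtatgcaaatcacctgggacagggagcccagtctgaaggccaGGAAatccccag
Foxa1: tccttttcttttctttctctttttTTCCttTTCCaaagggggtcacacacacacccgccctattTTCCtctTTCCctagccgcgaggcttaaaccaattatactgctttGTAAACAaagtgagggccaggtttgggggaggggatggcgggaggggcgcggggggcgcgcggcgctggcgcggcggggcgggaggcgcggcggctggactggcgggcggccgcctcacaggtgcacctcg
In the whole windows of 250 bases, the ETS core was found 1 time for *Elf5* and 4 times each for *Elf3* and *Foxa1*. The core is short and was present in 93.4% of 32851 such windows of the genome. The forkhead word was found in *Foxa1* alone of these and in 3.17% of all windows. The GATA word AGATAA (9.99% of all windows) and the C/EBP word TTGCGCAA (0.164% of all windows) were in none of the 3 windows. A match is only a description of these letters. *Elf5* has a second start upstream, and counts taken near the 3' end cannot tell transcripts of its starts apart. The *Foxa1* window also lies inside the gene span given above, so it does not precede the outermost annotated start. Bases inside exons of the gene, 6 for *Elf5*, 96 for *Elf3* and 10 for *Foxa1*, are not printed.

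Of the 8 factors, 4 were at least 2-fold higher in LP than in ML cells (*Elf5*, *Ehf*, *Elf3* and *Cebpb*) and 3 were at least 2-fold higher in ML than in LP cells (*Gata3*, *Foxa1* and *Tbx3*), while *Grhl2* was on neither side. Among all 10846 genes with 20 or more counts over the 3 classes, 11.4% were at least 2-fold higher in LP than ML cells and 17.8% were at least 2-fold higher in ML than LP cells. Levels are CPM of the summed counts of a class, and intervals (95%, exact Poisson for levels and ratios, Clopper-Pearson for shares of cells) cover counting error only. The median log2 ratio of LP over ML was -0.26 over all genes tested and 0.54 over the 8 factors.

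**Figure D1:**
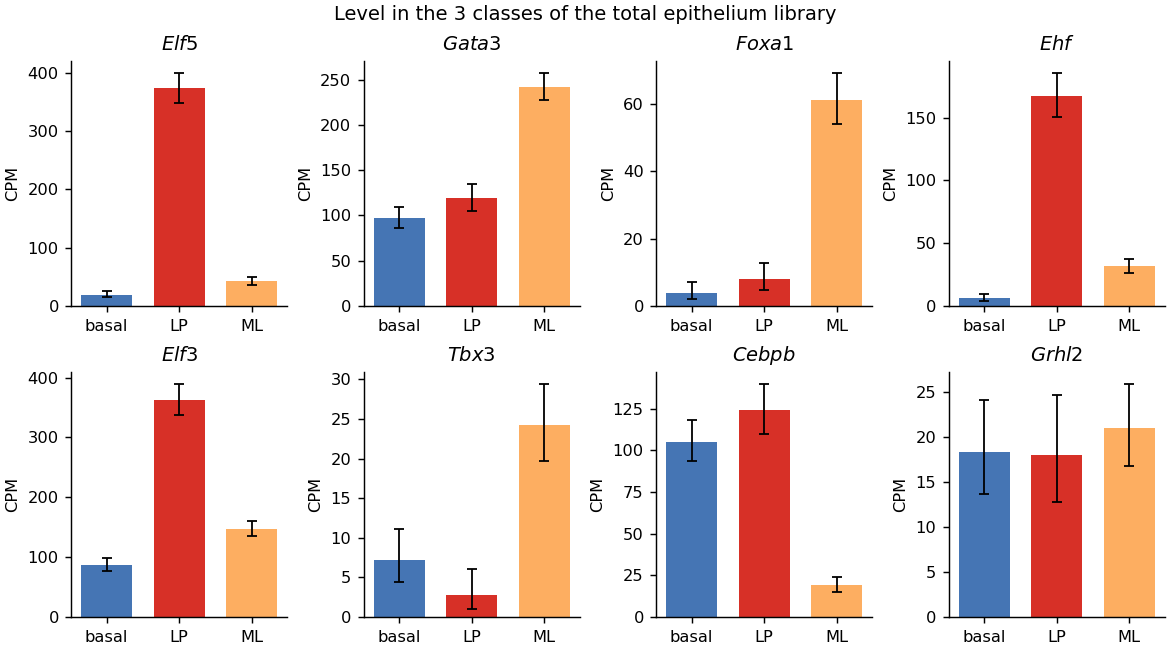
Level of each factor in CPM (bar) with its exact 95% Poisson interval (line) in the basal, LP and ML classes of the total epithelium library; each panel has its own axis from 0. *Elf5*, *Ehf* and *Elf3* were highest in LP, *Gata3*, *Foxa1* and *Tbx3* in ML, *Cebpb* was lowest in ML, and *Grhl2* lay between 18.1 and 21.1 CPM in each class.

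The ETS factors marked the progenitor side. *Elf5* stood at 374 CPM in LP cells (349 to 401), 42.1 in ML cells (36.1 to 48.8) and 19.5 in basal cells (14.6 to 25.4). The LP level was thus 8.88-fold above ML (7.53 to 10.5) and 19.2-fold above basal (14.6 to 25.8), and no pair of classes had overlapping intervals. A count of *Elf5* was seen in 383 LP cells, 50.0% of them (46.4 to 53.6%), against 7.59% of ML and 1.84% of basal cells, the class in which it would not be looked for. When each cell was thinned to 1000 counts, which left 725 LP, 1111 ML and 1254 basal cells, the shares were 26.8%, 2.43% and 1.04%, in the same order. A single LP cell held up to 14 *Elf5* counts, and 200 LP cells held at least 2.

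*Ehf*, the neighbour of *Elf5* on chromosome 2, followed the same order. It reached 168 CPM in LP (151 to 186), 31.5 in ML (26.3 to 37.4) and 6.12 in basal cells (3.57 to 9.80). LP exceeded ML by 5.33-fold (4.35 to 6.57) and basal cells by 27.4-fold (16.9 to 47.5). ML cells in turn were above basal cells by 5.14-fold (3.09 to 9.09). The share of cells with a count was 29.2% in LP, 7.50% in ML and 0.919% in basal cells, and 14.1%, 2.52% and 0.319% after thinning.

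*Elf3*, the third ETS factor, was graded and not restricted. Its levels were 363 CPM in LP (338 to 390), 147 in ML (136 to 160) and 86.8 in basal cells (76.2 to 98.5), with no overlap of intervals. LP was 2.46-fold above ML (2.21 to 2.74) and 4.18-fold above basal (3.62 to 4.85), and ML was 1.70-fold above basal (1.46 to 1.98). Thinned shares of cells with a count fell from 24.3% in LP to 11.4% in ML and 7.58% in basal cells. *Elf3* was therefore the ETS factor with the smallest LP to ML ratio of the 3.

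*Cebpb* shared the LP to ML difference but not the contrast with basal cells. It measured 124 CPM in LP (110 to 140), 105 in basal (93.5 to 118) and 19.1 in ML cells (15.1 to 23.8). LP and basal cells did not differ beyond counting error (ratio 1.18, 0.996 to 1.40), whereas LP was 6.50-fold (5.04 to 8.46) and basal 5.50-fold (4.28 to 7.15) above ML. Thinned shares of cells with a count were 12.0% in LP, 10.8% in basal and 1.26% in ML cells. *Cebpb* was the only one of the 8 to be at least 2-fold higher in basal than ML cells, a side on which 20.3% of all genes lay.

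On the mature side, *Foxa1* was highest in ML cells and low elsewhere. It was at 61.2 CPM in ML cells (53.9 to 69.2), 7.88 in LP (4.59 to 12.6) and 3.96 in basal cells (1.98 to 7.09). ML exceeded LP by 7.77-fold (4.76 to 13.6) and basal cells by 15.4-fold (8.49 to 31.3), while the LP and basal intervals overlapped. Only 17 and 11 counts stood behind the LP and basal levels, against 253 in ML cells. A count was seen in 16.6% of ML, 2.09% of LP and 0.689% of basal cells, or 6.03%, 1.38% and 0.239% after thinning.

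*Tbx3* was rare but followed *Foxa1* within the luminal layer. Its 100 counts in ML cells gave 24.2 CPM (19.7 to 29.4), its 20 in basal cells 7.20 CPM (4.40 to 11.1) and its 6 in LP cells 2.78 CPM (1.02 to 6.05). The ML to LP ratio was 8.70 (3.86 to 24.3) and the ML to basal ratio 3.36 (2.06 to 5.73). As a log2 ratio of LP over ML, *Tbx3* moved from -3.12 to -1.40 with classes called from 20 marker counts and to -3.90 with only the LP cells under 3 ML marker counts. The basal level was 2.59-fold above LP (1.0 to 7.89), the only factor of the 8 past 2-fold in that direction, where 22.1% of all genes were. That last order turned around, to a log2 ratio of LP over basal of 0.81, when classes were called from 20 marker counts, and fell short of 2-fold with markers at 0.4% of a cell's counts (-0.71) or with the deeper cells of each class alone (-0.92). After thinning, 2.25% of ML, 0.957% of basal and 0.414% of LP cells had a count, each close to what a few counts give.

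*Gata3* was found in every class. It measured 242 CPM in ML cells (228 to 258), 120 in LP (105 to 135) and 96.9 in basal cells (85.7 to 109). ML was 2.03-fold above LP (1.77 to 2.33) and 2.50-fold above basal (2.18 to 2.87), and LP was 1.23-fold above basal (1.04 to 1.47). A count was seen in 44.0% of ML, 21.0% of LP and 16.2% of basal cells, and in 22.2%, 9.93% and 8.77% after thinning, where the LP and basal intervals overlapped. The ML to LP ratio of *Gata3* sits just past 2-fold. With TMM scaling of the class sums the log2 ratio of LP over ML was -0.78, with median-of-ratios scaling -0.79, with classes called from 20 marker counts it was -0.80, and with a mean over cells it was -0.91, all below a 2-fold difference.

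*Grhl2* did not separate the classes. It stood at 21.1 CPM in ML (16.9 to 26.0), 18.4 in basal (13.7 to 24.2) and 18.1 in LP cells (12.8 to 24.7), and every pair of intervals overlapped. The LP to ML ratio was 0.858 (0.573 to 1.27), so at this depth differences up to 1.75-fold in favour of ML cannot be told from none. Thinned shares with a count were 2.62% in LP, 2.43% in ML and 1.91% in basal cells.

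**Figure D2:**
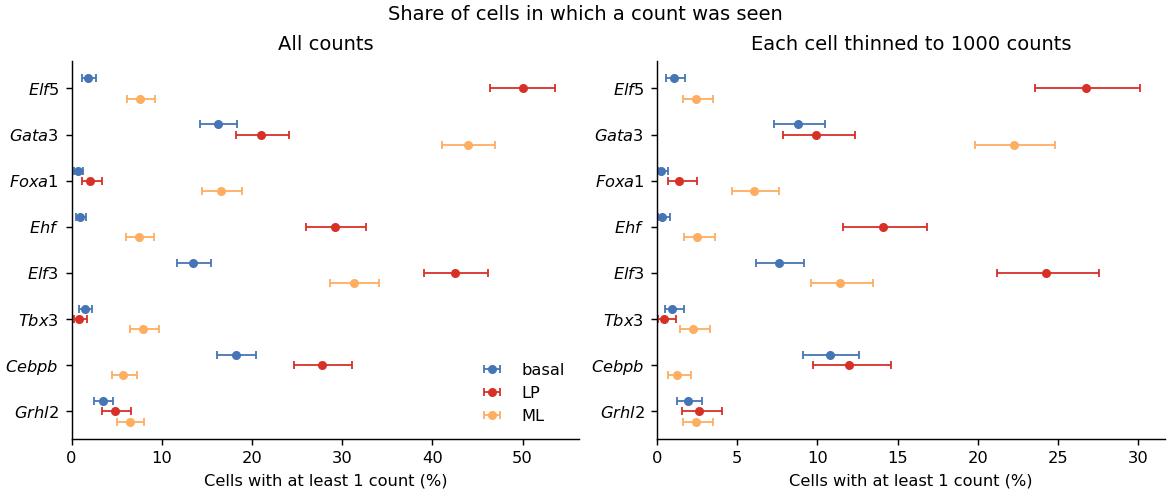
Share of cells with at least 1 count of each factor (horizontal axis, %) in basal, LP and ML cells, with all counts (left) and after thinning each cell to 1000 counts (right); lines are exact 95% Clopper-Pearson intervals. *Elf5* fell from 50.0% to 26.8% of LP cells with thinning but stayed above the 2.43% of ML cells, while the 3 intervals of *Grhl2* overlapped in the thinned cells.

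Against basal cells, 3 of the 8 factors were at least 2-fold higher in LP (*Elf5*, *Ehf* and *Elf3*; 12.6% of all genes) and 5 were at least 2-fold higher in ML (*Foxa1*, *Ehf*, *Tbx3*, *Gata3* and *Elf5*; 19.1% of all genes). The median log2 ratio over the 8 was 0.65 for LP over basal and 1.22 for ML over basal, beside -0.22 and 0.03 over all genes. *Foxa1* in LP over basal lay at the threshold, with a ratio of 1.99 (0.878 to 4.69), and passed it in 9 of 13 alternative settings. In 3 of the others it was lower in LP than basal cells, with log2 ratios of -0.45 (classes from 5 marker counts), -0.56 (LP cells under 3 ML marker counts) and -0.35 (the deeper cells of each class). *Elf5* in ML over basal cells fell short of it, at a log2 ratio of 0.88, with markers at 0.4% of a cell's counts. The plot of every gene shows the ETS genes *Elf5* and *Ehf* to the upper right and *Foxa1* to the upper left.

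**Figure D3:**
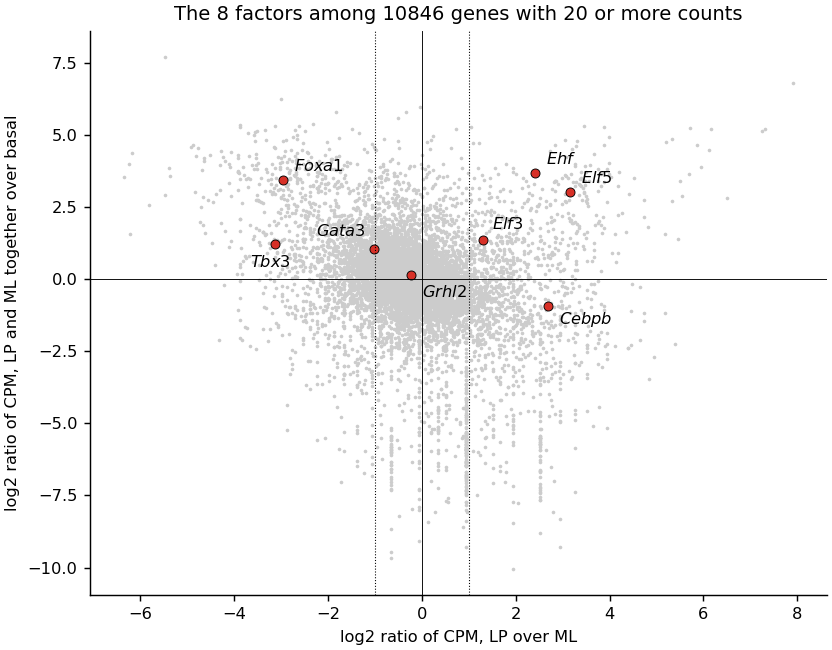
Each grey point is 1 of 10846 genes with 20 or more counts, placed by its log2 ratio of CPM in LP over ML cells (horizontal) and in LP and ML cells together over basal cells (vertical); the 8 factors are in red, dotted lines mark 2-fold, and columns of grey points at the bottom are genes with few luminal counts. *Grhl2* lies near the origin and *Cebpb* is the only factor below 0 on the vertical axis.

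Counts of a factor in a class that is not its own were set against counts of the marker genes in the same class. The 11 LP markers were at 8.28 to 14.6% of their LP level in ML cells (median 9.16%) and at 1.02 to 5.86% in basal cells. *Elf5* was at 11.3% of its LP level in ML cells and 5.2% in basal cells, inside both ranges. *Ehf* (18.8% in ML, 3.65% in basal) and *Elf3* (40.6% and 23.9%) were above the markers' range in ML cells, and *Elf3* was above it in basal cells too. Among the factors of the mature side, *Foxa1* (12.9%) and *Tbx3* (11.5%) in LP cells were within the 5.51 to 24.9% of the 7 ML markers outside the class rule, and *Gata3* (49.3%) was above them. In basal cells these 7 markers were at 3.17 to 18.2% of their ML level, *Foxa1* was at 6.47%, and *Tbx3* (29.8%) and *Gata3* (40.0%) were higher. Free RNA and mixed droplets were not tested apart for these low levels.

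The *Elf5* counts of ML cells came from a minority of them. LP and ML cells were ordered by the share of ML-marker counts among their LP-marker and ML-marker counts, lists that hold none of the factors, and cut into 10 bins of 189 or 190 cells. Every cell of bin 1 had a share of 0% and every cell of bins 9 and 10 a share of 100%. Bin 2 began at 0% and bin 8 ended at 100%. Tied cells were left in their deposited order, so differences among bins 1 and 2, or among bins 8 to 10, carry little or no order. ML cells in bins 4 and 5, which are nearest to the LP end, held 164 of the 174 counts in 256 cells (143 CPM, 122 to 167). The other 877 ML cells, in bins 6 to 10, held 10 counts (3.35 CPM, 1.60 to 6.15). The 256 cells were also deeper, with a median of 4379.5 against 3222 counts, and their LP markers summed to 31918 CPM against 213, a quantity that the ordering itself used. In the same split, *Cebpb* went from 50.7 CPM (38.5 to 65.5) to 7.03 (4.35 to 10.7) and *Ehf* from 81.3 (65.6 to 99.6) to 12.4 (8.72 to 17.1). *Elf3* went from 203 CPM (177 to 231) in the 256 cells to 126 CPM (114 to 140) in the 877. Whether these 256 cells were intermediates or droplets with 2 cells was not tested.

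Along the whole axis, *Elf5* measured 460, 371 and 426 CPM in bins 1 to 3, which are made of LP cells. It was 284 CPM in bin 4, which mixed 104 LP and 86 ML cells, 60.8 in bin 5 and at most 5.21 in bins 6 to 10. The drop thus fell within bins 4 and 5. *Foxa1* ran the other way, from 0 to 1.74 CPM in bins 1 to 3 to 34.7 CPM in bin 4, 52.1 in bin 5 and 58.9 to 74.5 CPM in bins 6 to 10. Bin 4 therefore held *Elf5* at 61.8% of its level in bin 1 and *Foxa1* at 46.6% of its level in bin 10. *Tbx3* was at most 3.47 CPM in bins 1 to 3, 8.01 in bin 4 and 20.2 to 33.5 CPM from bin 5 onward.

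*Ehf* and *Cebpb* fell in the same stretch of the axis as *Elf5*, with 152 and 77.4 CPM in bin 4, 49.2 and 39.1 in bin 5 and no more than 16.9 and 14.7 beyond it. *Elf3* fell in steps, from 365 to 412 CPM in bins 1 to 3 to 220 and 218 in bins 4 and 5 and 114 to 139 in bins 6 to 10. *Gata3* measured 98.0 and 60.1 CPM in bins 1 and 2, 148 in bin 3, 168 in bin 4 and 209 to 302 CPM from bin 5 on. The intervals of bins 1 (72.5 to 130) and 3 (118 to 183) overlapped, and 1 cell of bin 3 held 22 of its 85 counts. Without that cell bin 3 was at 110 CPM (84.8 to 141). *Gata3* was counted in 18.9% of the cells of bin 1, 14.7% of bin 2, 18.9% of bin 3 and 40.5% of bin 4, so bins 1 and 3 held the same number of cells with a count (36) and bin 4 held 77. *Grhl2* ranged between 10.8 and 35.4 CPM with overlapping intervals between neighbours. Bins 8 to 10 also took in 67 LP cells that held no or almost no LP-marker counts.

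**Figure D4:**
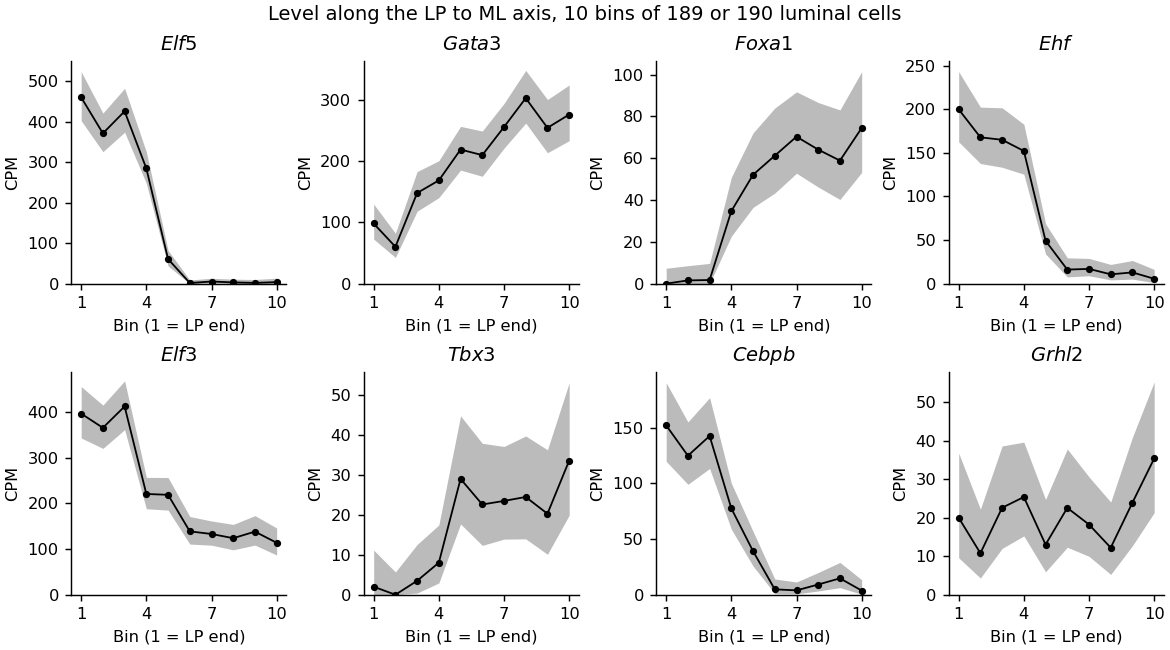
CPM of each factor (points) with exact 95% Poisson intervals (grey) over 10 bins of luminal cells ordered from the LP end (bin 1) to the ML end (bin 10). Cells tied at an ML-marker share of 0% (bins 1 and 2) or 100% (bins 8 to 10) were left in their deposited order. *Elf5*, *Ehf* and *Cebpb* dropped between bins 3 and 6, *Foxa1* and *Tbx3* rose between bins 3 and 5, *Gata3* was lowest in bin 2 and higher from bin 4 on, and *Elf3* fell in 2 steps.

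Over the 10 bins, and as a description of points that share 1 library, the log2(CPM + 10) of *Elf5* had a Pearson r of 0.99 with *Ehf*, 0.98 with *Cebpb* and 0.95 with *Elf3*. The most opposed pair was *Foxa1* and *Elf3* (r = -0.96). Of 4005 genes with 200 or more luminal counts, outside the markers and the factors, those most like *Elf5* were *Plet1*, *Plin2* and *Atp6v1b1* (r of 0.998 or above). *Foxa1* was closest to *AW112010*, *Wfdc2* and *Wnt5a* (each r = 0.997), *Ehf* to *Efhd2*, *Cxcl16* and *Marcksl1* (each r = 0.99), and *Cebpb* to *Ldhb*, *Hbegf* and *Plscr2* (each r = 0.99). *Tbx3* was closest to *Psmb3*, *Tmed9* and *Epn1* (each r = 0.99), *Gata3* to *Eif5a*, *Cbfb* and *Spcs3* (each r = 0.98), and *Elf3* to *Ralb*, *Ccdc129* and *Slc1a1* (each r = 0.98). *Cbfb*, the partner subunit of the RUNX factors, was the only one of these genes on the lists of related regulators described further on. The nearest to the flat *Grhl2* were *Atxn7l3b*, *Tex261* and *Vps26a*, at 0.87, 0.85 and 0.81.

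Within a class, several of the pairs named here were seen together in about as many cells as their separate shares give. In the 725 thinned LP cells, *Elf5* and *Ehf* were both counted in 32 cells, where the product of the shares gives 27.3. *Elf5* with *Elf3* gave 50 cells against 47.1, *Ehf* with *Elf3* 30 against 24.8, and *Elf5* with *Cebpb* 23 against 23.3. Other pairs fell below the product, such as *Gata3* with *Elf3* (12 against 17.5) and *Elf3* with *Cebpb* (17 against 21.1). In the 1111 thinned ML cells, *Gata3* and *Foxa1* met in 16 cells against 14.9 and *Foxa1* and *Elf3* in 11 against 7.66. *Elf5* met *Ehf* in 4 ML cells against 0.680 and *Cebpb* in 3 against 0.340, numbers too small to rank. At 1000 counts per cell, 36.6% of LP, 58.5% of ML and 72.6% of basal cells had no count of any of the 8 factors, so most single cells cannot be typed by them.

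Without thinning, *Elf5* and *Foxa1* were counted together in 3 LP cells, fewer than the 8.0 that the product of their shares gives, on few counts. In unthinned ML cells the 2 numbers were close (15 against 14.3). In the thinned cells they were 1 against 2.68 in LP and 1 against 1.63 in ML cells, too few to rank. With all counts, 380 LP cells had *Elf5* without *Foxa1*, 13 had *Foxa1* without *Elf5* and 3 had both. The 13 cells with *Foxa1* alone carried ML markers at 17536 CPM, against 710 in the 380 with *Elf5* alone. In ML cells the numbers were 71 with *Elf5* alone, 173 with *Foxa1* alone and 15 with both. The 15 cells with both had the highest median count of these groups, 6423 against 3218 in ML cells with neither.

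The LP class itself was uneven by its ML markers. In 650 LP cells with under 3 ML marker counts, *Elf5* measured 413 CPM (384 to 443) and *Foxa1* 2.69 (0.874 to 6.28). In the 116 with 3 to 9 such counts, *Elf5* was 136 CPM (97.5 to 184) and *Foxa1* 39.8 (20.5 to 69.4). *Gata3* went from 107 (92.8 to 123) to 195 CPM (149 to 252), and *Ehf* from 185 (166 to 205) to 62.9 (37.9 to 98.3). The 116 cells thus lay between the LP and ML classes for these 4 factors. They made up 14% of the class's counts.

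In the basal class, *Elf5* was carried by cells that also held luminal keratins. The 174 basal cells with 10 or more counts of *Krt8*, *Krt18* and *Krt19* held 20.8% of the class's counts but 51 of its 54 *Elf5* counts (88.4 CPM, 65.8 to 116). In the 579 basal cells with under 3 keratin counts *Elf5* was at 2.01 CPM (0.244 to 7.27), and in the 553 with 3 to 9 it was at 0.830 (0.0210 to 4.62). The same 174 cells held 16 of the 17 *Ehf* counts and 7 of the 11 *Foxa1* counts. *Gata3*, *Elf3* and *Cebpb* were counted in every keratin range of the basal class. *Gata3* measured 87.6, 93.7 and 120 CPM from the lowest to the highest keratin range, *Elf3* 78.5, 75.5 and 125, and *Cebpb* 94.6, 103 and 128. For *Elf3* the interval of the highest range (97.6 to 157) lay above that of the 3 to 9 range (60.8 to 92.7).

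Basal cells with *Elf5* and no *Foxa1* numbered 23, had a median of 4647 counts against 1820 in basal cells with neither, and carried LP markers at 68462 CPM against 1893. The 8 basal cells with *Foxa1* alone had ML markers at 23744 CPM against 1973. Without the cells that held both kinds of keratin, the ML to basal ratio of *Elf5* was 29.9 in place of 2.16 and its LP to basal ratio 277 in place of 19.2. *Ehf* moved alike, to 68.3 from 5.14 for ML over basal and to 372 from 27.4 for LP over basal, and *Foxa1* moved to 33.5 from 15.4 for ML over basal. These raised ratios rest on very few basal counts, so their size is imprecise. Basal cells with under 3 and with 3 to 9 keratin counts held 2 and 1 counts of *Elf5*. They held 0 and 1 of *Ehf*, and 0 and 4 of *Foxa1*. The part of doublets in these cells was not tested.

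The sorted basal library offers the same lineage in a second sample, taken by surface proteins and not by transcripts. Here *Elf5* was at 18.5 CPM (13.5 to 24.7), beside the 19.5 CPM of the basal class (ratio 0.950, 0.627 to 1.43). That ratio depended on which cells were compared. Its log2 value was -2.22 with only the sorted cells that met the basal rule, and 1.01 with each cell thinned to 300 counts (18 counts against 3). It was 1.23 without sorted cells of 3 or more and basal cells of 10 or more luminal keratin counts. Then 5 factors, *Elf5* among them, were at least 2-fold higher in the sorted library. Those cut-offs differ, and only 7 *Elf5* counts stood on the sorted side. The basal side held 2 in cells with under 3 keratin counts and 1 in cells with 3 to 9. With under 3 keratin counts in both libraries, *Elf5* was at 3.21 CPM (1.29 to 6.61) in sorted cells. In basal cells it was at 2.01 CPM (0.244 to 7.27), an overlapping interval. *Elf3* was at 101 CPM (ratio 1.17, 0.974 to 1.40). *Foxa1* (2 counts) and *Ehf* (6 counts) were at 0.804 and 2.41 CPM, with ratios of 0.203 (0.0218 to 0.929) and 0.394 (0.127 to 1.05). Within the sorted cells, too, *Elf5* sat with luminal keratins. The 424 cells with 3 or more such counts held 39 of the 46 *Elf5* counts (128 CPM, 90.8 to 174), and the other 4347 held 7 (3.21 CPM, 1.29 to 6.61).

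*Cebpb* set the sorted basal library apart. Its 4076 counts gave 1638 CPM (1588 to 1689), 15.6-fold above the basal class (13.8 to 17.6) and above every class of the other library. It was counted in 48.6% of the sorted cells (47.1 to 50.0%) despite their low depth, and in 77.3% (71.0 to 82.7%) of the 211 sorted cells that reached 1000 counts, against 10.8% of basal cells thinned alike. The level was 1747 CPM (1673 to 1823) in the 1758 sorted cells that met the basal rule and 1607 (1554 to 1661) in those with under 3 keratin counts, so it was not tied to 1 range of cells. In the same comparison *Grhl2* was 3.39-fold (2.46 to 4.75), *Tbx3* 3.18-fold (1.88 to 5.59) and *Gata3* 2.07-fold (1.78 to 2.41) higher in the sorted library.

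That made 4 of 8 factors at least 2-fold higher in the sorted library, where 28.9% of 10187 genes were, and 2 (*Foxa1* and *Ehf*) at least 2-fold higher in the basal class, where 15.8% were. The median log2 ratio was 0.46 over all genes tested, and 0.64 over the 8 factors. With TMM scaling the *Cebpb* ratio was 11.1 and the *Grhl2* ratio 2.41, while *Gata3* was at 1.47. With only the sorted cells that met the basal rule, the log2 ratio of *Tbx3* was 0.80 and that of *Gata3* 0.98, and with each cell thinned to 300 counts *Tbx3* was at 0.79. Without sorted cells of 3 or more and basal cells of 10 or more luminal keratin counts, neither *Foxa1* (log2 ratio -0.40) nor *Ehf* reached 2-fold. The basal side then held 4 *Foxa1* counts and 1 *Ehf* count, all in cells with 3 to 9 keratin counts. The sorted side held 0 *Foxa1* counts, set to the floor of 3, and 1 *Ehf* count. After thinning to 300 counts *Foxa1* was at -3.16, a larger difference, but it was not called because 1 count in the sorted library and 3 in the basal class stood behind it. *Ehf* was then at -0.57. A sum of 10 immediate-early genes (*Fos*, *Fosb*, *Jun*, *Junb*, *Egr1*, *Atf3*, *Ier2*, *Dusp1*, *Zfp36* and *Nr4a1*, early responders to handling stress, chosen after the values were seen) was 42633 CPM in the sorted library and 34488 CPM in the basal class. Basal markers summed to 24876 CPM in the sorted library against 39125 in the basal class, where the class rule itself used some of them. Fibroblast markers summed to 853 against 383 CPM and Schwann markers to 142 against 33.5. Endothelial, pericyte and immune markers summed to at most 43.2 CPM in either, with *Ptprc* and *Cd3e* at 0 in both. The sort, the mice, the library and its depth cannot be told apart here, and the part of stress genes in the *Cebpb* level was not tested.

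**Figure D5:**
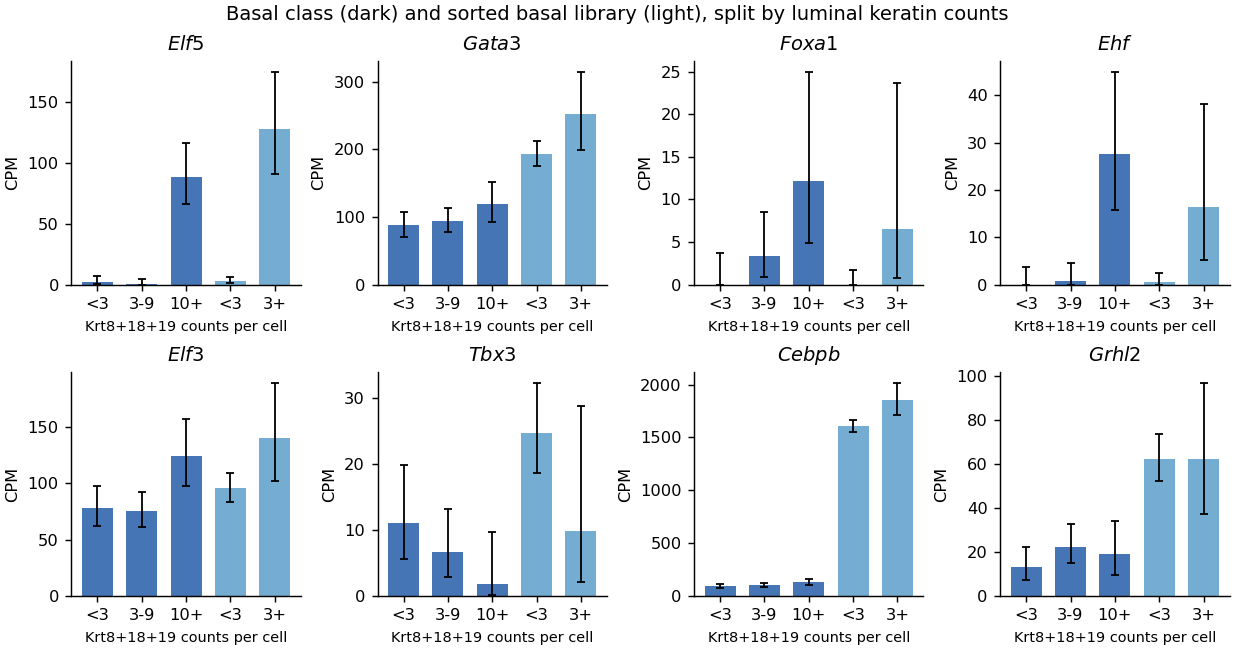
CPM of each factor (bars, each axis from 0) with exact 95% Poisson intervals in basal cells of the total epithelium library (dark; under 3, 3 to 9, and 10 or more summed counts of *Krt8*, *Krt18* and *Krt19* per cell) and in the sorted basal library (light; under 3, and 3 or more). *Elf5* and *Ehf* were high only in the top keratin range of each library, and *Cebpb* was at 1607 and 1859 CPM in the ranges of the sorted library and at most 128 CPM in those of the basal class.

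Of 18 other ETS genes, 14 had 20 or more counts, 3 (21.4%, beside 11.4% of all genes) were at least 2-fold higher in LP than ML cells and 3 (21.4%, beside 17.8%) in ML than LP cells, with a median log2 ratio of 0.02. *Etv4*, a PEA3-type ETS factor, was at 18.9 CPM in ML and 1.39 in LP cells (13.6-fold, 4.48 to 67.3). *Spdef*, known from secretory epithelia, was at 10.2 against 0.927 CPM (11-fold, 2.85 to 93.5), and *Etv1* was at 5.81 against 1.39 CPM (4.18-fold, 1.27 to 21.7). *Ets1* was higher in LP than ML cells, at 13.9 against 5.57 CPM (2.50-fold, 1.40 to 4.50). Unlike *Elf5*, it was highest in basal cells (40.0 CPM), as were *Etv4* (40.7 CPM) and *Etv1* (8.28 CPM). *Ets2*, with nearly the same LP to ML ratio (2.49-fold, 2.23 to 2.79), was highest in LP cells. It measured 329 CPM in LP, 132 in ML and 95.1 in basal cells, the order seen for *Elf3*. Of the 14, 6 (42.9%) were at least 2-fold higher in basal than ML cells, beside 20.3% of all genes.

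Of 31 relatives of the other factors (GATA, forkhead, T-box, C/EBP and grainyhead), 17 were tested, 5 (29.4%, beside 11.4% of all genes) were at least 2-fold higher in LP and 2 (11.8%, below the 17.8% of all genes) in ML cells, and the median log2 ratio of LP over ML was 0.55. *Foxi1*, known from ion-transporting cells, was at 47.7 CPM in LP and 6.05 in ML cells (7.89-fold, 5.06 to 12.8). *Foxc1* (3.31-fold, 1.5 to 7.69) and *Foxo3* (3.14-fold, 2.37 to 4.17) were also higher in LP cells, and *Foxq1* was higher in ML cells (5.72-fold, 3.52 to 9.85).

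Of 22 other regulators of luminal fate, 21 were tested, 7 (33.3%, beside 11.4% of all genes) were at least 2-fold higher in LP and 5 (23.8%, beside 17.8%) in ML cells, and the median log2 ratio was -0.12. The 5 include *Pgr*, *Cited1* and *Esr1*, which are also on the ML marker list. *Hey1*, a target of Notch signalling, was at 191 CPM in LP and 16.9 in ML cells (11.3-fold, 8.75 to 14.8), and *Bcl11a*, a zinc finger repressor, at 14.8 against 1.45 CPM (10.2-fold, 4.21 to 29.9). The progesterone receptor gene *Pgr*, also 1 of the ML markers, was at 56.9 CPM in ML and 5.56 in LP cells (10.2-fold, 5.75 to 20.1), and *Myb* at 29.5 against 3.71 CPM (7.96-fold, 3.92 to 18.9). Those ratios are of the size of *Elf5* on the LP side and *Foxa1* and *Tbx3* on the ML side.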

How the data were processed

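Both libraries were 10X Chromium 3' libraries of the adult mouse mammary gland. The authors deposited raw counts of unique molecules per gene and cell as whole numbers, made with Cell Ranger (1.2.1 in the submitters' processing notes, 2.0 in the study's methods) on mm10, with no normalization; cell calling and read collapse cannot be repeated from them. The deposited tables held as many barcodes as the labels state, 4771 and 3302, and all were used. Any effect on the counts of genes that overlap on the genome was not tested.

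Counts were summed per class and scaled to CPM; a class at 0 was set to a floor of 3 counts for a fold. With 1 library per group no test was run, and a call was a CPM ratio of 2 or more. Thinning drew 1000 counts per cell without replacement (seed 1). The call rule and intervals were run on simulated Poisson counts. These hold no spread between cells beyond counting, so this checks the calculation only and not how well the intervals suit real cells. The factors, marker lists and relatives were chosen with earlier results of these data known. All 9 factors were named, with up to 4 genes per list by size of the LP to ML ratio and the 3 genes most like each factor over 10 bins. *Cited1* and *Esr1* were named besides as ML markers, and *Ets2* because its ratio nearly tied with that of *Ets1*. Positions came from GENCODE (GRCm38) and promoter windows of 250 bases from RefSeq (GRCm38.p6); bases inside exons of the gene were not printed. Python 3.11.15, numpy 2.4.6, scipy 1.17.1, pandas 2.3.3 and matplotlib 3.10.9 were used, and edgeR 4.0.16 in R 4.3.3 for TMM factors only. Alternatives changed marker thresholds, cells kept, scaling, depth and the fold. The comparison with the sorted basal library and its alternatives were chosen after the data were seen.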

Additional observations from a re-analysis of the deposited data

How the results depend on the processing

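The 4 factors higher in LP than ML cells were 4 in every setting but a fold of 4, which left 3 (without *Elf3*), and the 3 higher in ML were 2 (without *Gata3*) under TMM or median-of-ratios scaling, a threshold of 20 marker counts, a mean over cells and a fold of 4. A fold of 4 left 2 factors higher in ML than basal cells, 1 higher in the sorted than the basal cells and 1 the other way. Sorted cells that met the basal rule left 2 higher in the sorted library. Leaving out cells with luminal keratins, or thinning to 300 counts, left 0 factors called higher in the basal class than the sorted library, although thinned *Foxa1* was at a log2 ratio of -3.16, on 1 count against 3. *Ehf* in sorted over basal cells turned to a log2 ratio of 0.011 without keratin-bearing cells, and *Tbx3* in LP over basal cells to 0.81 with 20 marker counts; the reported values rest on 6 counts each, in the sorted library and in LP cells, and the cause was not tested. Of 344 alternative ratios, 286 stayed within the counting interval of the reported value and 56 moved out of it without reversing a 2-fold difference. TMM scaling moved all log2 ratios of LP over ML by 0.24, of LP over basal by 0.21, of ML over basal by -0.02 and of sorted over basal by -0.49. Levels at both ends of the axis stayed within their intervals with 5 bins. Depth limited *Tbx3* and *Foxa1* in LP and basal cells and *Ehf* in basal cells to 20 counts or fewer. No paired analysis was possible because each group holds 1 library and no result comes from a test.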
